A study of Mus musculus with 9 samples.

Results

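The lysosomal cathepsin genes were examined in murine primary cells cultured from tumors (MPC). The members were the 10 genes Ctsa, Ctsb, Ctsc, Ctsd, Ctsf, Ctsh, Ctsk, Ctsl, Ctss and Ctsz, chosen by their symbols among the 18049 genes of the deposited table. All 10 were found, and all 10 reached the minimum set for tests, a mean of 50 normalized counts. RNA was sequenced from 9 clones, isolated as separate colonies from pancreatic tumors of WTg mice. These mice carry EL1-Luc/EL1-Tag, that is, luciferase and SV40 large T antigen under the Elastase I promoter of pancreatic acinar cells, and a Mettl3 transgene under the CAG promoter, which is active in most cell types. All 9 clones shared this genotype, and the labels give their treatment as none, although a protocol field names NMS-P937, a PLK1 inhibitor, at 80 nM for 24 h. The age of the mice, and how many mice gave the clones, are not given in the sources used here. The p-values therefore measure the spread between these 9 libraries and not between mice.

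Cathepsins are proteases of the lysosome, the acidic compartment in which cells break down proteins taken up from outside or delivered by autophagy. Most of them, cathepsins B, C, F, H, K, L, S and Z among the members, are papain-like cysteine proteases, while cathepsin D is an aspartic protease and cathepsin A a serine carboxypeptidase. They are made as inactive proenzymes, carried to lysosomes largely by mannose 6-phosphate receptors, cleaved to the active form there and restrained outside the lysosome by cystatins. Macrophages are known for high amounts of many cathepsins, and cathepsin K is known from osteoclasts, where it degrades collagen, and from activated fibroblasts.

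The deposited values were turned into normalized counts, in which each library's reads are rescaled by its own factor. The libraries held from 12198036 reads, in the MET_EL library, to 20453901 reads on genes. The column names carry 3 prefixes whose meaning is not stated, MET_EL with 1 library, Whe10 with 4 and Whe3 with 4, and libraries are numbered within a prefix in the order of the columns. Xist was between 29664 and 32912 normalized counts in the Whe10 libraries, where Ddx3y was at 0. In the others Xist was at most 8.39 and Ddx3y at 2376 or more. The sex-linked transcripts thus had a female pattern in Whe10 and a male one in the others, so more than 1 mouse gave the clones. Prefix and sex cannot be told apart, and whether clones of a prefix share a mouse is not known. The labels call the cells fibroblasts, yet the 16 macrophage markers examined all had more than 3 reads in every library, as did 13 of 14 fibroblast markers. The macrophage markers together held 2.42% to 3.76% of a library's normalized counts, and the fibroblast markers 1.45% to 3.92%. Of 6 lymphocyte markers 0 were listed. Of 7 epithelial markers 5 were listed, and Epcam had 0 reads in all libraries. Krt8 and Krt18 were at most 1.29 and 6.47 normalized counts. Krt19 and Cdh1 had more than 3 reads in every library, up to 145 normalized counts in Whe10 library 2 and 152 in Whe3 library 4. Of 6 acinar markers, Cela2a, Prss2, Ctrb1, Cpa1 and Amy2a5 were highest in Whe3 library 3, with Prss2 at 554.0 normalized counts there and at most 31.2 elsewhere. Cela1 was between 144 and 293 in all libraries and highest in Whe10 library 1. In bulk libraries, fewer cells of a type and less RNA per cell cannot be told apart.

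The 10 cathepsin genes together held 2.20% ± 0.385 (SD, n = 9) of all normalized counts, and Ctsb and Ctsd alone held 1.76% ± 0.351. The share was between 2.40% and 2.74% in the 4 Whe10 libraries, between 1.62% and 2.30% in the 4 Whe3 libraries and at 1.84% in the MET_EL library. The Whe10 libraries were thus all above the Whe3 libraries, by a small margin, and Whe3 library 2 was the lowest of all. Counts are not divided by transcript length, since no exonic lengths were at hand, so levels are compared between libraries and not between genes.

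Ctsb (ENSMUSG00000021939, chromosome 14, 63122462 to 63145923 of GRCm38) encodes a cysteine protease that acts both inside chains and from their carboxyl ends. It was at 263652, 254601, 282694 and 230415 normalized counts in Whe10 libraries 1 to 4, at 223107, 149788, 170672 and 231809 in Whe3 libraries 1 to 4 and at 202277 in the MET_EL library. The Whe10 values were high as a set and the Whe3 values were spread more widely, with a single Whe3 library above the lowest Whe10 library. Ctsd (ENSMUSG00000007891, chromosome 7, 142375910 to 142387827), the aspartic endopeptidase, was at 252142, 261632, 289194 and 276435 in Whe10 libraries 1 to 4, at 255733, 172959, 165580 and 224705 in Whe3 libraries 1 to 4 and at 172516 in the MET_EL library. As for Ctsb, Whe3 libraries 2 and 3 and the MET_EL library were the low ones, and Whe3 library 1 overlapped the Whe10 libraries.

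Ctsa (ENSMUSG00000017760, chromosome 2, 164832872 to 164841032) encodes the carboxypeptidase that also stabilizes neuraminidase 1 and beta-galactosidase in the lysosome. It was at 27482, 25328, 28584 and 24029 normalized counts in Whe10 libraries 1 to 4, at 22278, 18280, 20617 and 25997 in Whe3 libraries 1 to 4 and at 24378 in the MET_EL library. Whe10 library 3 was the highest for Ctsa, Ctsb and Ctsd, and Whe3 library 2 was the lowest for Ctsa and Ctsb.

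Ctss (ENSMUSG00000038642, chromosome 3, 95526786 to 95556405) encodes the protease that trims the invariant chain of MHC class II in antigen-presenting cells. It ranged from 22163 in Whe3 library 2 to 40168 normalized counts in Whe3 library 4, with a median of 31273. Ctss was thus both lowest and highest within the Whe3 libraries, while the Whe10 libraries lay close together at 32433 ± 1863 (SD, n = 4). Ctsf (ENSMUSG00000083282, chromosome 19, 4855165 to 4860918), another papain-like protease with a long propeptide, ranged from 676 to 1040 with a median of 875. Its extremes were Whe3 library 2 and Whe10 library 1, and it rested on as few as 322 reads in 1 library, the fewest of any member. Ctsc (ENSMUSG00000030560, chromosome 7, 88278024 to 88315861), the dipeptidyl peptidase that activates granule serine proteases, ranged from 9383 in the MET_EL library to 16517 in Whe10 library 1 with a median of 10970. Its 9 libraries fell into a higher set of 4, of which 3 were Whe10 libraries and 1 was Whe3 library 4, and a lower set of 5.

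Ctsh (ENSMUSG00000032359, chromosome 9, 90054267 to 90076095), an aminopeptidase, ranged from 3693 to 5392 normalized counts with a median of 4608. Ctsz (ENSMUSG00000016256, chromosome 2, 174427494 to 174439039), a carboxypeptidase, ranged from 12600 to 17978 with a median of 14870. Both were highest in Whe3 library 4, and their Whe10 and Whe3 values overlapped. Ctsl (ENSMUSG00000021477, chromosome 13, 64361890 to 64370772), an endopeptidase of broad action, was at 35199 in the MET_EL library and between 18667 and 29895 in the other 8. The MET_EL library was its highest, and it was the only member for which that held.

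Ctsk (ENSMUSG00000028111, chromosome 3, 95499210 to 95509387) differed most between clones. It was at 1169, 1527, 1006 and 1539 normalized counts in Whe10 libraries 1 to 4, at 1115, 2423, 1468 and 3202 in Whe3 libraries 1 to 4 and at 2560 in the MET_EL library. Whe3 libraries 2 and 4 and the MET_EL library stood above the other 6, and the remaining Whe3 libraries lay among the Whe10 libraries. The highest library was 3.18 times the lowest, against 1.43 to 1.89 times for the other 9 members. Ctsk and Ctss lie side by side on chromosome 3 with 17398 bases and 1 annotated gene model between them, yet their levels did not rank the libraries alike, since the highest library was shared and Whe3 library 2 was the third highest for Ctsk and the lowest for Ctss.

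**Figure D1:**
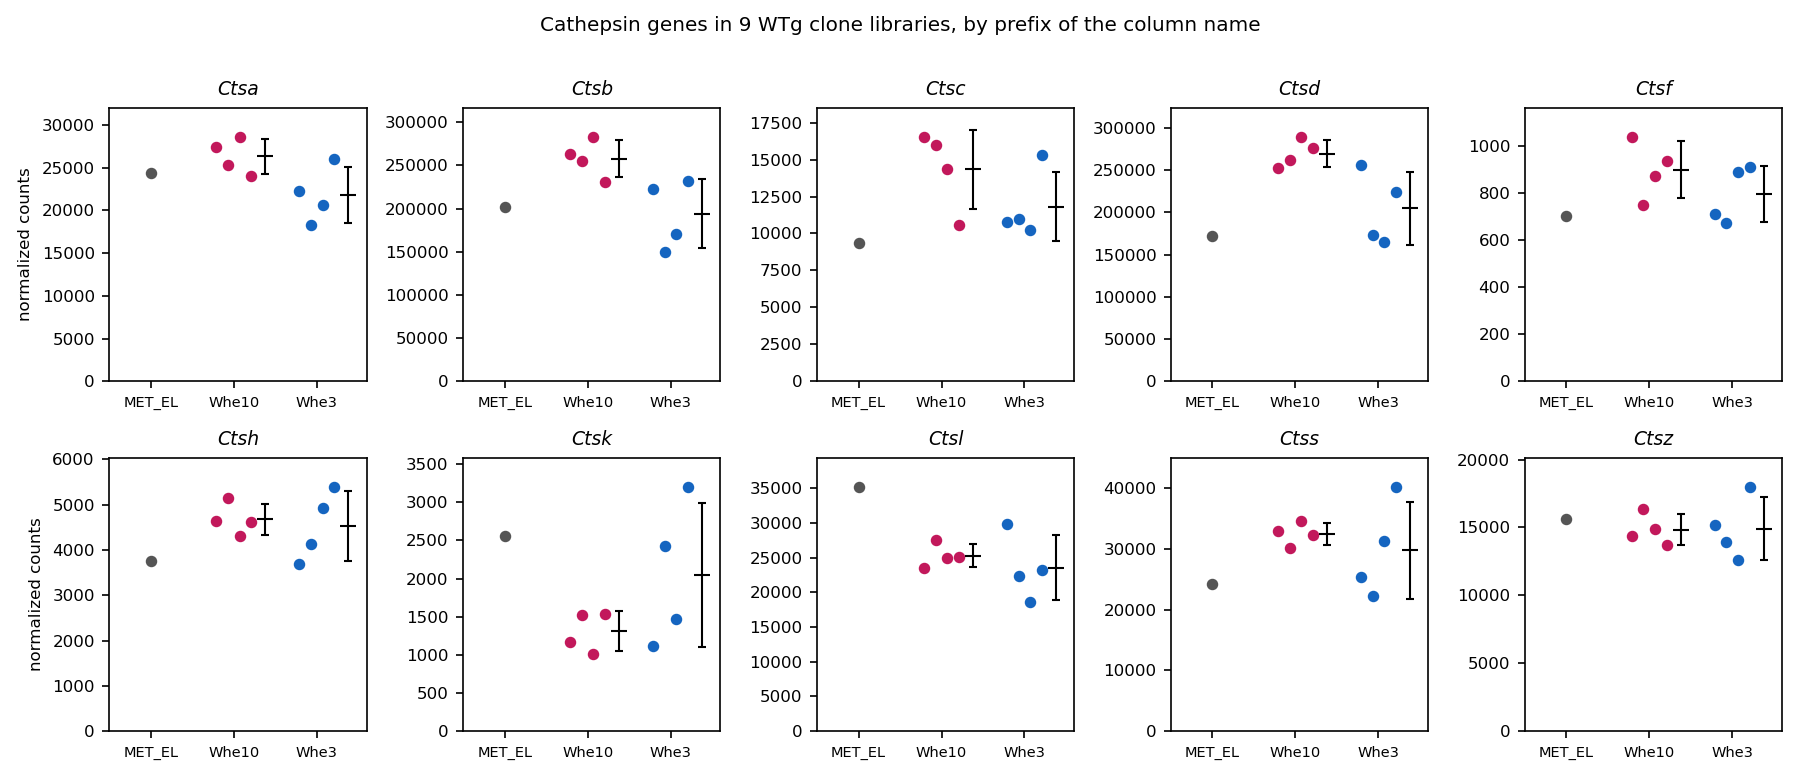
Normalized counts of each cathepsin gene (y axis from 0, own scale per gene) in the 9 WTg clone libraries, grouped by the prefix of the column name. Points are libraries and bars are mean ± SD over the 4 libraries of a prefix. Ctsk spans 1006 to 3202, and Ctsl is highest in the MET_EL library at 35199.

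**Figure D2:**
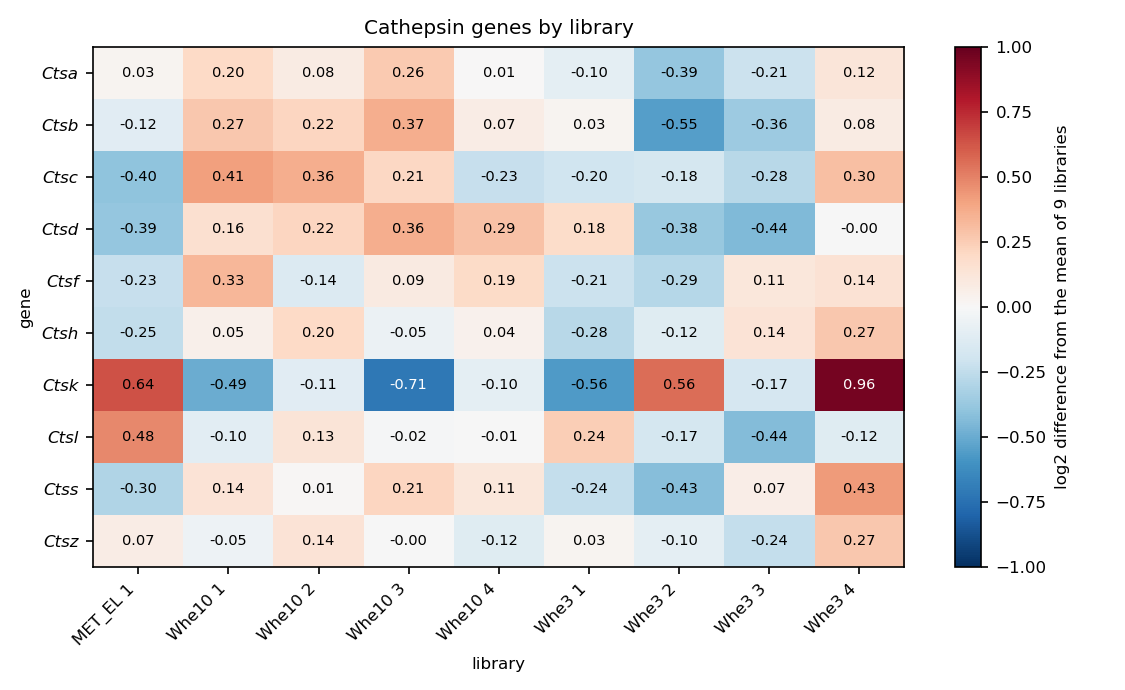
Difference of each cathepsin gene in each library from its own mean over the 9 libraries, on the log2(normalized counts + 1) scale. Ctsk reaches 0.96 in Whe3 library 4 and -0.71 in Whe10 library 3, where Ctsa, Ctsb and Ctsd are at their highest.

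The spread between clones was larger than counting error for all 10 members. The SD of log2(normalized counts + 1) over the 9 clones had a median of 0.27 over the members, from 0.15 for Ctsz to 0.59 for Ctsk. Over the 12301 genes tested the median SD was 0.21, and over the 5839 of them at or above the mean of the lowest member it was 0.17. Of the members, 7 were above the median of all genes tested. The coefficient of variation was 43.0% for Ctsk and between 10.7% and 22.1% for the others, while counting error alone gives between 0.251% and 4.19%. The SD of Ctsk lay at the 88.3 percentile of the genes tested and that of Ctsz at the 31.9 percentile. A spread above counting error is not particular to the members. Atp6ap2, whose SD lay at the 3.85 percentile, had a coefficient of variation of 5.09% against 1.66% from counting error.

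The genes whose pattern over the 9 clones was most like that of the 3 most variable members were sought among the other 12300 genes by the Pearson correlation of log2 values. For Ctsk they were Lgi4 (r = 0.960), Col28a1 (r = 0.949), a collagen gene, and Ly6a (r = 0.943), which encodes the surface protein Sca-1. For Ctsd they were Pex26, Secisbp2 and Rnasek, with r from 0.952 to 0.934, and for Ctsc they were Cpne3, Itsn1 and Pigq, with r from 0.974 to 0.940. These are the highest values of a search over all genes with 9 shared libraries, so they describe these libraries and carry no test.

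Whether cathepsin genes followed the level of Mettl3 was examined with log2 Mettl3 as the covariate, which counts reads of the endogenous gene and of the transgene together. Mettl3 was at 2184 normalized counts in the MET_EL library and between 468 and 621 in the other 8, so the slope rests mainly on 1 library. Of the 10 members 0 passed an adjusted p of 0.05 in limma with a trend, against 1.93% of the 12300 genes tested (0.293% higher and 1.64% lower), and 0 passed with voom on recovered reads. At an unadjusted p under 0.05, where 14.6% of all genes tested lay, there was 1 member, Ctsl, with a slope of 0.27 per log2 unit of Mettl3 (standard error 0.0998, adjusted p = 0.26 from limma). The slopes of the others lay between -0.15 and 0.28, with 3 above 0 and 6 below, and the 95% interval of each included 0. The interval was narrowest for Ctsz, from -0.13 to 0.23, and widest for Ctsk, from -0.31 to 0.87. Without the MET_EL library limma called 0 genes, with 1467 at an unadjusted p under 0.05, and the slope of Ctsl was 0.38 (standard error 0.49). The direction of the members also turned there, with 9 of 10 slopes above 0 and a median of 0.48, against -0.05 with all 9 libraries. Over all genes tested in that fit, 54.6% of slopes were above 0, with a median of 0.0726. Mettl3 was at 515 to 621 in the Whe10 and 468 to 502 in the Whe3 libraries, so it runs with prefix there. With prefix as a further term, 8 of 10 slopes were above 0, against 56.4% over all genes tested.

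The Whe10 and Whe3 libraries were compared because the column names set them apart. Of the 10 members 0 differed at an adjusted p under 0.05 in limma, against 0.293% of the 12301 genes tested (0.179% higher and 0.114% lower in Whe3), and 0 did with voom. At an unadjusted p under 0.05 there was 1 member in limma, Ctsa, and 3 with voom, against 21.7% and 21.2% of all genes tested, so these counts are near the background. The estimates, Whe3 minus Whe10 on the log2 scale, were below 0 for 9 of 10 members and above 0 for 1. Over all genes tested, 47.2% were above 0. The median was -0.17 over the members, against -0.0150 over all genes tested. Among the 9, Ctsz at -0.000777 and Ctsh at -0.06 were close to 0. Ctsb was at 257840 ± 21711 in Whe10 and 193844 ± 39898 in Whe3 (SD, n = 4 each), a difference of -0.43 with a 95% interval from -0.89 to 0.03 (adjusted p = 0.25 from limma). Ctsd was at 269851 ± 16316 and 204744 ± 42983 (SD, n = 4 each), a difference of -0.42 with an interval from -0.88 to 0.04 (adjusted p = 0.26 from limma). Ctsa had the lowest adjusted p, 0.22 from limma, with a difference of -0.28 and an interval from -0.56 to -0.01. These estimates were thus all downward in Whe3, and none passed. Ctsk was the exception in direction, at 1310 ± 266 and 2052 ± 945 (SD, n = 4 each), a difference of 0.55 with an interval from -0.18 to 1.28 (adjusted p = 0.34 from limma). Under upper quartile scaling and under total scaling 8 of 10 estimates were below 0 and 2 above. Over all genes tested, 50.1% and 47.5% were above 0 there. Without Whe3 library 3, the library with the most Prss2, 266 of all genes passed and 0 members did. The macrophage markers held 3.16% to 3.69% of normalized counts in Whe10 and 2.42% to 3.76% in Whe3. The fibroblast markers held 1.45% to 2.28% and 2.01% to 3.92%. Gene by gene, the estimates of all 16 macrophage markers were below 0. Of 12 fibroblast markers tested, 11 were above 0 and 1 was below. None of these markers passed, and their part in the differences of the members was not tested.

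The macrophage marker level was the mean of log2(normalized counts + 1) over the 16 macrophage markers, none of which is a cathepsin gene. It ranged from 14.03 in Whe3 library 2 to 14.83 in Whe10 library 3. It was at least 14.57 in the Whe10 libraries, at most 14.48 in the Whe3 libraries and at 14.43 in the MET_EL library. Every Whe10 library was thus above all the others, so this level runs with prefix. A slope over all 9 libraries does not set the marker level apart from prefix. Of the 10 members Ctsa passed, with a slope of 0.67 per log2 unit (standard error 0.173, adjusted p = 0.038 from limma). Over all 12285 genes tested 12.7% passed in either direction, 8.13% with a positive and 4.58% with a negative slope, so 1 of 10 is near the background. An unadjusted p under 0.05 was found for 5 members, Ctsa among them, against 33.3% of all genes tested. Ctsb had a slope of 0.92 (standard error 0.350, adjusted p = 0.11 from limma) and Ctss of 0.74 (standard error 0.271, adjusted p = 0.093 from limma). Ctsc was at 0.75 with an adjusted p of 0.145 and Ctsf at 0.60 with an adjusted p of 0.087, both from limma. Ctsb and Ctss each passed in 1 of 18 alternatives, Ctsb without a trend (adjusted p = 0.047 from limma) and Ctss without Whe3 library 4 (adjusted p = 0.042 from limma). The median slope over the members was 0.64, against 0.0313 over all genes tested, while Ctsl at -0.06, Ctsz at 0.06 and Ctsk at -1.005 lay apart from that median.

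Ctsa passed in 10 of 18 alternatives, voom among them, but not within prefixes. With prefix as a further term its slope was 0.71 (standard error 0.296, adjusted p = 0.23 from limma), and 12 of all genes passed. Leaving out any of the 4 Whe10 libraries or Whe3 library 2 also moved its adjusted p above 0.05, to between 0.057 and 0.23 (limma), and without the 2 clones farthest from the median it was 0.49. Within prefixes Ctss had a slope of 1.29 (standard error 0.351, adjusted p = 0.12 from limma) and Ctsd of -0.01, against 0.69 without the term. Of the genes called, 999 were higher and 563 lower, and under upper quartile scaling 1119 were higher and 1071 lower.

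The fibroblast marker level, made in the same way from 14 markers, ranged from 12.19 in Whe10 library 3 to 13.52 in the MET_EL library. That library was also the highest for Mettl3. Over the 9 libraries the fibroblast marker level correlated with log2 Mettl3 (r = 0.68) and inversely with the macrophage marker level (r = -0.48). The fits on these covariates are thus not separate from each other. All markers weigh the same in it, also Lum and Fap, whose means of 15.3 and 40.9 normalized counts were under the minimum for tests. The markers did not all run together, since Dcn and Lum were lowest in Whe3 library 2, where Col1a1 and Col1a2 were highest. Of the 10 members Ctsk passed, with a slope of 1.20 per log2 unit (standard error 0.306, adjusted p = 0.047 from limma). The share of all 12289 genes tested that passed was 7.97%, with 3.33% for positive and 4.65% for negative slopes, so 1 of 10 is near the background. Ctsd was the other member with an unadjusted p under 0.05, where 30.4% of all genes tested lay, with a slope of -0.65 (standard error 0.246, adjusted p = 0.11 from limma). The remaining 8 members had slopes between -0.47 and 0.20.

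The slope of Ctsk kept its sign and was no smaller without the library that stood apart. Without the MET_EL library it was 1.91 (standard error 0.429, adjusted p = 0.083 from limma), and with prefix as a further term it was 2.31 (standard error 0.646, adjusted p = 0.42 from limma). Its adjusted p was thus above 0.05 in both, and 96 and 0 of all genes passed in these fits, the latter against 876 at an unadjusted p under 0.05. Ctsk passed in 5 of 18 alternatives. Its adjusted p was 0.104 with a pseudocount of 0.1, 0.0502 with a filter at a mean of 1 normalized count, 0.058 without a trend, 0.058 with voom and 0.43 without the 2 clones farthest from the median. Leaving out any of the Whe10 libraries, Whe3 library 2 or Whe3 library 3 moved its adjusted p to between 0.051 and 0.14 (limma). Of the genes called, 409 were higher and 571 lower, against 383 and 909 under upper quartile scaling and 328 and 752 under total scaling.

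Since Ctsk is known from osteoclasts, their markers were examined beside it. Calcr, Ocstamp, Dcstamp and Oscar, 4 of the 7 osteoclast markers, were not among the genes listed. The 3 others did not peak where Ctsk did. Acp5, the acid phosphatase of osteoclasts, was at 23.6 normalized counts in Whe3 library 4, its lowest value, and Mmp9 had a mean of 17.8 ± 10.1 (SD, n = 9). Atp6v0d2, a proton pump subunit, was at 1075 in that library, within its range of 470 to 1700.

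**Figure D3:**
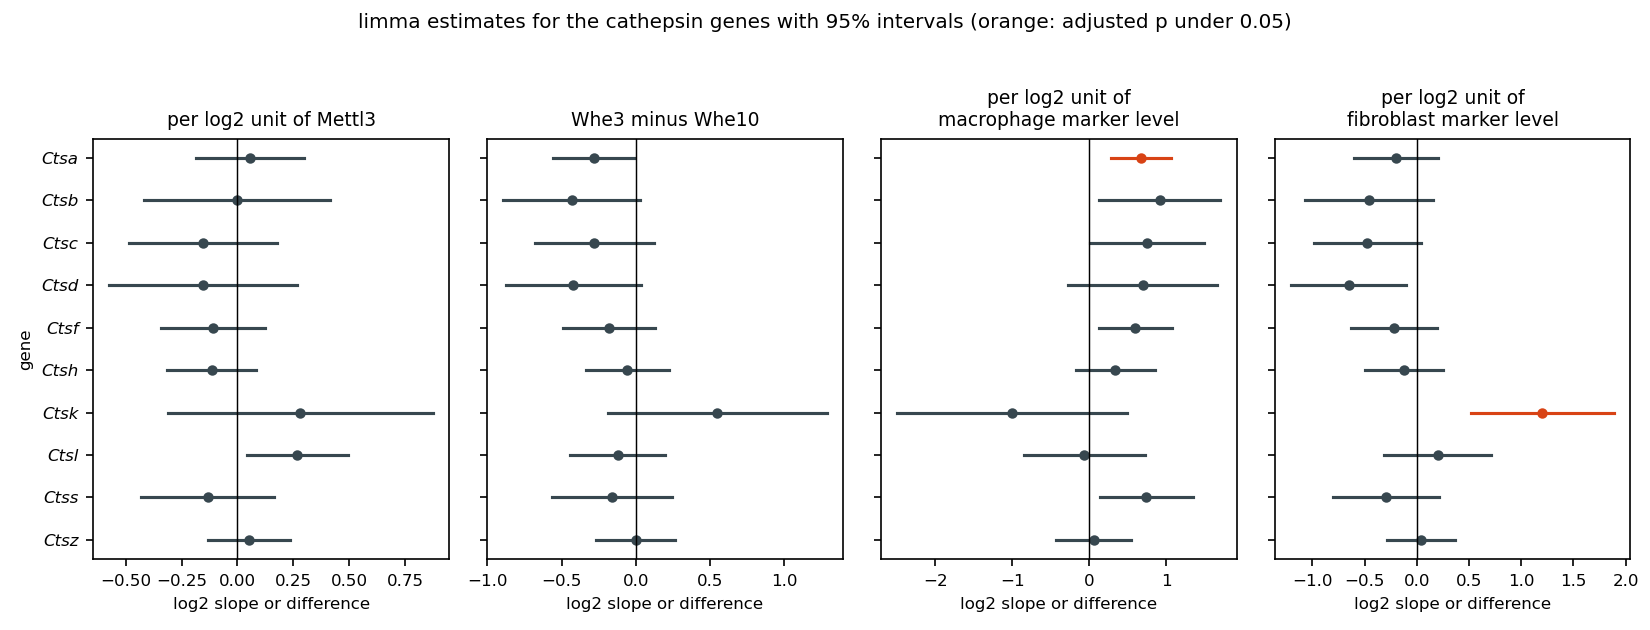
limma estimates for the 10 cathepsin genes with 95% intervals (x axis, log2 slope per log2 unit of the covariate, or log2 difference Whe3 minus Whe10; y axis, genes). Ctsa passes an adjusted p of 0.05 against the macrophage marker level and Ctsk against the fibroblast marker level, and no member passes in the other panels.

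**Figure D4:**
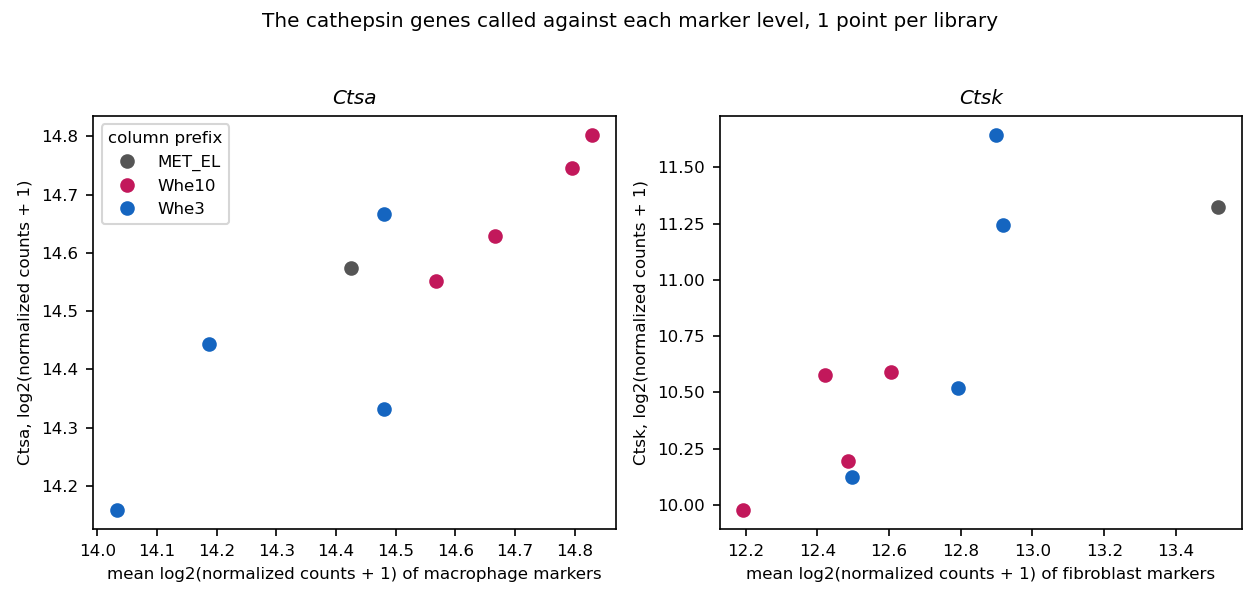
Log2(normalized counts + 1) of Ctsa against the macrophage marker level and of Ctsk against the fibroblast marker level, 1 point per library, coloured by prefix. The axes do not start at 0. The MET_EL library is the rightmost point for Ctsk, at a fibroblast marker level of 13.52.

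Other genes of the cathepsin system were examined with the same fits, and 0 of them differed between prefixes. Each of their calls against the macrophage marker level was lost within prefixes (adjusted p from 0.074 to 0.23 in limma) and without Whe10 library 1, and each against the fibroblast marker level within prefixes and without the MET_EL library. Of 13 other cathepsin genes, Ctso and Ctsw were listed. Ctso, a little studied cysteine cathepsin, was at 1195 ± 178 normalized counts (SD, n = 9), and Ctsw, known from cytotoxic lymphocytes, at 2.01 ± 1.93, under the floor of 3 reads on average. Ctso rose with the macrophage marker level (slope 0.78, standard error 0.131, adjusted p = 0.015 from limma).

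Among inhibitors of cysteine proteases, 9 of 12 were listed and 6 were tested. Cst3, the secreted cystatin C, ranged from 8729 to 14935 normalized counts and rose with the macrophage marker level (slope 0.88, standard error 0.170, adjusted p = 0.021 from limma). Cstb, the cytosolic stefin B, was at 4013 ± 385 (SD, n = 9) and passed in none of the 4 fits. Cst7, cystatin F, which enters lysosomes and acts on cathepsin C, was at 293 in the MET_EL library, at 196 and 130 in Whe3 libraries 4 and 2, and between 13.0 and 52.7 in the other 6. The 3 libraries with the most Cst7 were also the 3 with the most Ctsk, and Cst7 rose with the fibroblast marker level (slope 3.49, standard error 0.754, adjusted p = 0.032 from limma), with adjusted p = 0.16 without the MET_EL library and 0.80 within prefixes.

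Ctla2a, whose product resembles a cathepsin propeptide and inhibits cathepsin L, was at 11092 normalized counts in the MET_EL library and between 997 and 2813 in the other 8. This library also had the highest Ctsl. Ctla2a was called with Mettl3 (slope 1.33, standard error 0.254, adjusted p = 0.033 from limma), a call that rests on the MET_EL library, since without it the slope was 0.39 with an adjusted p of 0.89. Ctla2b, a close copy of Ctla2a, was at 1823 ± 302 (SD, n = 9), and the split of reads between such copies is uncertain.

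Of 8 genes for sorting to lysosomes, 1 fell with the fibroblast marker level and 1 rose with the macrophage marker level. Over all genes tested 4.65% and 8.13% did so, so these counts are near the background. Sort1, which encodes the sorting receptor sortilin, was at 3901, 2996, 4226 and 3236 normalized counts in Whe10 libraries 1 to 4, at 2337, 1232, 2981 and 1715 in Whe3 libraries 1 to 4 and at 536 in the MET_EL library. The MET_EL library was the lowest and the Whe3 libraries were all below the Whe10 libraries, but the difference between prefixes missed the threshold (-0.86, adjusted p = 0.15 from limma). Its slope against the fibroblast marker level was -2.28 (standard error 0.307, adjusted p = 0.016 from limma), and the call was lost without the MET_EL library (adjusted p = 0.12) and within prefixes (adjusted p = 0.83). Gnptg, a subunit of the enzyme that makes the mannose 6-phosphate tag, had a slope of 0.76 against the macrophage marker level (adjusted p = 0.026 from limma). The receptors M6pr and Igf2r, at 7516 ± 596 and 6103 ± 1668 (SD, n = 9), passed in none of the 4 fits.

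Of 5 genes for processing and partners of cathepsins, Lgmn passed against the macrophage marker level (slope 0.97, standard error 0.252, adjusted p = 0.039 from limma), where 8.13% of all genes tested rose. Lgmn, the protease legumain that cleaves cathepsin proenzymes, ranged from 17868 in the MET_EL library to 31654 in Whe10 library 1. Psap, Grn, Neu1 and Glb1 passed in none of the 4 fits. Of 10 acidification genes, 3 subunits of the proton pump rose with the macrophage marker level, against 8.13% of all genes tested. They were Atp6v0d2 with a slope of 1.97, Atp6v1b2 with 0.71 and Atp6v1a with 0.60 (adjusted p from 0.024 to 0.034 in limma). Atp6v0a1, another pump subunit, fell by 0.71 per log2 unit of the fibroblast marker level (adjusted p = 0.036 from limma).

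The transcription factors of the MiT/TFE family, Tfeb, Tfe3, Mitf and Tfec, are known to switch on lysosomal genes through E-box-like sites. With the macrophage marker level 3 of the 4 rose, against 8.13% of all genes tested. They were Mitf with a slope of 1.55 (standard error 0.170, adjusted p = 0.010 from limma), Tfeb with 1.27 (standard error 0.287, adjusted p = 0.027 from limma) and Tfe3 with 0.71 (standard error 0.1004, adjusted p = 0.011 from limma). Mitf was at 1962, 1599, 1704 and 1373 normalized counts in Whe10 libraries 1 to 4, at 841, 860, 1370 and 1193 in Whe3 libraries 1 to 4 and at 1079 in the MET_EL library, so that the lowest Whe10 and the highest Whe3 library were nearly level. Within prefixes the slope of Mitf was 1.46 with an adjusted p of 0.077 from limma.

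**Figure D5:**
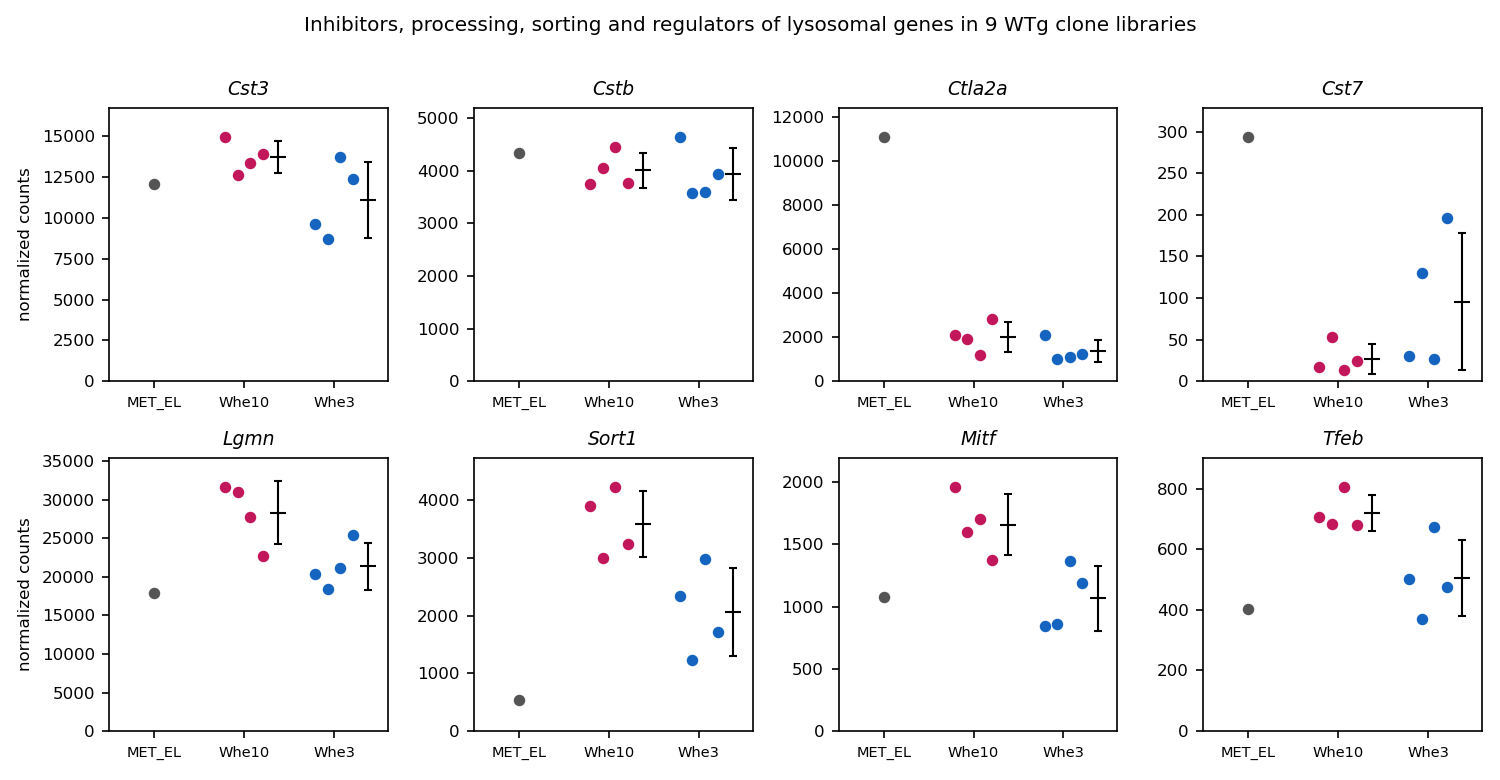
Normalized counts of inhibitors (Cst3, Cstb, Ctla2a, Cst7), the processing protease Lgmn, the sorting receptor Sort1 and the regulators Mitf and Tfeb (y axis from 0, own scale per gene) in the 9 libraries by prefix, with mean ± SD over 4 libraries. The MET_EL library is highest for Ctla2a at 11092 and lowest for Sort1 at 536.

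The promoters of the members were searched for 5 motifs, among them the E-box to which the MiT/TFE factors can bind, chosen after the data were seen. RefSeq promoters of GRCm38.p6, 250 bases before to 50 bases after an annotated start, were found for 8 of the 10 members, with 9 promoters in all. Ctsb and Ctsh had none and were not searched. The E-box core CACGTG, which reads the same on both strands, stood in promoters of Ctsa, Ctsd, Ctsf and Ctsl, 4 of 9, against 7.15% of all 32851 promoters. The longer form TCACGTGA, which contains the core, stood in those of Ctsa and Ctsd, against 0.974% of all. Ctsa held a further copy of the longer form and Ctsd a further copy of the core, not printed here. The site GAGGAAGT or its complement ACTTCCTC, a form bound by the myeloid factor PU.1, stood in those of Ctsc and Ctss, against 3.20% of all. The AP-1 site TGAGTCA or TGACTCA stood in 0 of the 9, against 5.202% of all, and TATAAA or TTTATA in that of Ctss alone, against 13.6% of all. No searched motif was found for Ctsk or Ctsz. A match is a description of the letters and not a site shown to be bound. The matches are printed on the strand of the gene with the motif in capitals, first the longer E-box, then the core, then the PU.1 form.
Ctsa: gcaaactgTCACGTGAtgcagatg
Ctsd: cccgcgtcTCACGTGAcccgttga
Ctsf: ccgtggtcCACGTGcctcgcgt
Ctsl: ttagaagcCACGTGctgatcta
Ctsc: actaactaACTTCCTCaggccacc
Ctss: gaaagttcACTTCCTCattgtgga

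These windows lie at chr2:164833752-164833775 on the plus strand for Ctsa, chr7:142387911-142387934 on the minus strand for Ctsd, chr19:4855078-4855099 on the plus strand for Ctsf and chr13:64370743-64370764 on the minus strand for Ctsl. Those of Ctsc and Ctss lie at chr7:88277926-88277949 and chr3:95526776-95526799, both on the plus strand. The motif began 13 bases before an annotated start of Ctsa, 99 before that of Ctsd, 79 before that of Ctsf, 236 before an annotated start of Ctsl, 151 before that of Ctsc and 2 before that of Ctss. For Ctsa and Ctsl these starts lie inside the gene spans given above, and so do the windows. The promoter at the outer start of Ctsa held none of the searched motifs. The promoters of Ctsk, Ctss and Ctsl held 43.7%, 44.0% and 50% G or C, below the median of 52.7% over all promoters. Those of Ctsa (60.7% and 54.7%), Ctsc (60.3%), Ctsd (67.3%), Ctsf (59.7%) and Ctsz (61%) were above it. The promoters with the E-box core, which itself holds a C followed by a G, had 8 to 33 such pairs. The median over all promoters was 7, and the shares of all promoters given above were not matched for this.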

How the data were processed

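RNA-sequencing of 9 WTg clones was examined in 1 table that the authors deposited as log2 values of scaled read counts plus an offset of 4. GRCm38, FastQC 0.11.9, STAR 2.7.10 and RSEM 1.3.3 are named in the submitters' processing notes, with no role. The scaling is not given in the sources used here. The labels name ISOGEN for extraction and TruSeq stranded mRNA libraries. The 6 columns of MEF libraries, from other studies, were not used, so WTg clones were not compared with MEFs here. Column names match no sample title, so libraries were taken as unnumbered replicates. The log2 was undone, 4 was subtracted, and the value of 1 read, 1.26 to 2.19 normalized counts, gave whole reads within 0.05 for 100% of nonzero values under 1000 reads. The floor of 3 reads was 3.79 to 6.56 normalized counts and covers counting error alone. limma 3.58.1 (R 4.3.3, eBayes with a trend) was fitted on log2(normalized counts + 1) over genes with a mean of at least 50, with Benjamini-Hochberg adjustment over all genes tested. It was also run on simulated data in which all genes had the same dispersion and libraries differed only in depth and in planted slopes. That setting is simpler than these data, so it cannot show that the calls hold. The members and gene lists were chosen with earlier results of these data known. Genes named are the members, the lists of inhibitors, sorting, processing, regulators and acidification, and the 3 genes most like each of the 3 most variable members. Levels per transcript length, which had been planned, were not computed because no lengths were at hand. Motifs were chosen after the data were seen. Alternatives were other pseudocounts, filters, scalings, variance models, a prefix term and left-out libraries. Leaving out each library in the fits on a covariate, and a block on column numbers, were added after seeing the data. Promoter sequences came from RefSeq and 18033 of 18049 identifiers matched the gene names given. Python 3.11.15 with numpy 2.4.6, pandas 2.3.3 and matplotlib 3.10.9 was used.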

Additional observations from a re-analysis of the deposited data

Results flagged for a closer look

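Of 45 cathepsin, inhibitor, sorting, processing, regulator and acidification genes examined, Mettl3 included, 4 had a library far from the other 8, by the ratio of its gap to the nearest library over the whole range (Dixon's test at the 95% level). Chance gives about 2.25 among 45, and none of the 10 cathepsin genes was among them. The MET_EL library was far above the others for Mettl3, with a ratio of 0.911, for Ctla2a, with 0.820, and for Atp6ap1, with 0.518 (13321 against 11617 normalized counts in the next library). Whe3 library 4 was far above the others for Atp6v0c, with 0.503 (23183 against 19196 normalized counts).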

How the results depend on the processing

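For each cathepsin gene, the mean stayed within 1 SD of its main value and the SD within 1.5 times under all alternatives run for them, where the largest scaling factor was 0.0681 on the log2 scale. The number of genes called depended on the setting. Against Mettl3 it was 238, and 417 with a filter at a mean of 1 normalized count, 46 with voom, and 0 without the MET_EL library, without the 2 clones farthest from the median and with a prefix term (1467, 2057 and 276 at an unadjusted p under 0.05). Between prefixes it was 36, and 20 without a trend and 22 with voom. The column numbers 7A and 11A occur under both prefixes, and what they mean is not stated. In these 4 libraries, an alternative chosen after seeing the data, 1 gene passed with the number as a replicate block (1016 at an unadjusted p under 0.05) and 3 passed without the block, with 0 members in either. Over the genes tested, the deviations of same-numbered libraries from their prefix means correlated at 0.0104 (11A) and -0.05 (7A), so the numbers were not taken to pair the libraries. Against the macrophage marker level it was 1562, and 2619 without the MET_EL library, 0 without the 2 farthest clones (1697 at an unadjusted p under 0.05) and 12 with a prefix term. Against the fibroblast marker level it was 980, and 200 with a pseudocount of 0.1, 503 with voom, 96 without the MET_EL library, 1 without the 2 farthest clones and 0 with a prefix term. The cause was not tested. Leaving out 1 other library gave 162 to 339 genes against Mettl3, 9 to 266 between prefixes (266 without Whe3 library 3), 1 to 1383 against the macrophage marker level (1 without Whe10 library 1, 5 without Whe3 library 2, 58 without Whe10 library 3) and 6 to 1550 against the fibroblast marker level (6 without Whe10 library 3, 1550 without Whe3 library 1). The slope of Ctla2a against Mettl3 reversed to -0.14 without the 2 farthest clones and to -3.54 with a prefix term. Ctsa kept a positive slope in all 18 alternatives and passed in 10, and Ctsk kept one in all 18 and passed in 5.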
